A study of Arabidopsis thaliana with 6 samples.

Results

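Cells that line the leaf veins and cells that fill the leaf blade were compared here for 4 genes of phenylpropanoid and monolignol synthesis: the ligase gene 4CL5 (AT3G21230), the transferase gene HCT (AT5G48930), and the reductase genes CCR1 (AT1G15950) and CCR2 (AT1G80820). Each gene was found by its AGI code in 1 probe set, and they are 4 of the 13332 genes that could be named on the array. HCT and CCR2 were named by the array annotation, whereas 4CL5 and CCR1 could be named only through the study's own list of genes that differed on these same arrays, so their differences are a description and not an independent test. The transcripts of 4CL5 and CCR1 were lower in bundle sheath cells (BSCs) than in mesophyll cells (MCs), by 3.61 times and 2.64 times. In both, every BSC array lay below every MC array, as it did for 2.85% of all probe sets. HCT and CCR2 had overlapping values in the cell types, and their differences of -0.23 and -0.39 on the log2 scale did not pass the test.

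Phenylpropanoid synthesis turns the amino acid phenylalanine into hydroxycinnamic acids, which feed lignin, flavonoids and the UV-absorbing sinapate esters of the Arabidopsis leaf. 4-Coumarate:CoA ligase (4CL) loads the acids onto coenzyme A, and hydroxycinnamoyl-CoA:shikimate hydroxycinnamoyl transferase (HCT) passes them to shikimate so that the ring can be hydroxylated. Cinnamoyl-CoA reductase (CCR) then reduces the CoA esters to aldehydes, the step into the monolignol branch. Monolignols are the alcohols from which lignin of xylem vessels and fibres is made.

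The BSCs form the layer around the leaf veins, and the MCs are the photosynthetic cells outside that layer. All plants were of ecotype Landsberg (Ler) and carried GFP under the SCARECROW promoter (SCR:GFP), so both groups have the transgene and neither was treated. Leaf pieces with the lower epidermis peeled off were digested briefly, and single protoplasts were picked by hand, the smaller ones with GFP fluorescence as BSCs and the larger ones without it as MCs. RNA was extracted from pools of 20 protoplasts, amplified in successive rounds and hybridized to Affymetrix ATH1 arrays, 1 extract per array, with BSC arrays 3, 5 and 7 and MC arrays 4, 6 and 8. In pooled RNA, fewer expressing protoplasts and less transcript in each protoplast cannot be told apart. The age of the plants and the number of plants behind a pool are not given in the sources used here.

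Levels are log2(NREL), the log2 of the normalized raw expression level. Of this scale, 2 lies near the middle of all probe sets, and 3.5 is the level from which a gene is called highly expressed here. The arrays differed in their spread: the SD over 22746 probe sets was 0.60 on BSC array 7 and 0.84 to 1.23 on the other 5 arrays, and 78 probe sets reached a level of 5 on BSC array 7 against 406 to 1157 on the others. The 3' minus 5' difference of the ubiquitin control probe sets, which rises as fewer copies reach the 5' end, was 0.90 on BSC array 7 and 3.63 to 4.50 on the others. That of the GAPDH controls was 2.39, 1.97 and 0.35 on BSC arrays 3, 5 and 7. On the MC arrays it was 1.10 to 1.51. For the actin controls it was negative on every array, -1.54 to -0.21, so the controls did not order the arrays alike. No probe set of the bundle sheath (0 of 3), xylem (0 of 6) or epidermis (0 of 4) marker lists could be named, so the labels were not checked against these. The 4 of 6 named photosynthesis genes had a mean level of 3.24 to 7.25 on the BSC arrays and 6.85 to 8.95 on the MC arrays, 3 of them being in the study's own list of differing genes. The phloem marker SWEET11 lay at 2.43 to 3.80 in BSCs and 2.78 to 3.55 in MCs, and the guard cell gene FAMA at 1.81 to 2.35 and 1.83 to 1.98. The part of spread, RNA quality or other cells in the results below was not tested.

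4CL5 is the Arabidopsis 4CL isoform known for accepting sinapate as well as the simpler acids. It had log2(NREL) of 3.04, 2.39 and 2.06 on BSC arrays 3, 5 and 7. On MC arrays 4, 6 and 8 it had 4.24, 5.49 and 3.31. All 3 MC values lay above all 3 BSC values, the nearest pair being BSC array 3 and MC array 8, 0.27 apart. The mean was 2.50 ± 0.50 in BSCs and 4.35 ± 1.10 in MCs (SD, n = 3 arrays each), so the mean lay above 3.5 in MCs and below it in BSCs. The difference, BSC minus MC, was -1.85 (SE 0.59, 95% confidence interval -3.30 to -0.40) on the log2 scale, 3.61 times lower in BSCs with an interval of 1.32 to 9.83. In limma its unadjusted p was 0.0207, which with the fold passed the thresholds used here (unadjusted p under 0.05 and a fold change of at least 1.5). The p adjusted by the Benjamini-Hochberg method over all probe sets was 1. Those thresholds were passed by 0.501% of all probe sets, 0.361% as lower and 0.141% as higher in BSCs, while 2.85% of all probe sets had every BSC array below every MC array.

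CCR1, also known as IRREGULAR XYLEM 4, is the reductase of lignin formation during normal growth. It had log2(NREL) of 4.15, 3.62 and 3.51 on BSC arrays 3, 5 and 7 and of 4.47, 5.82 and 5.20 on MC arrays 4, 6 and 8. The cell types did not overlap, with a gap of 0.31 between BSC array 3 and MC array 4, as 2.85% of all probe sets did not in this direction. CCR1 stood above 3.5 on every array. The means were 3.76 ± 0.34 in BSCs and 5.16 ± 0.68 in MCs (SD, n = 3 each). CCR1 was 2.64 times lower in BSCs (interval 1.39 to 5.01), a log2 difference of -1.40 (SE 0.37, interval -2.33 to -0.47) with an unadjusted p of 0.0104 in limma and an adjusted p of 1. By unadjusted p it took place 41 of the 22746 probe sets, and 4CL5 took place 103.

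4CL5 and CCR1 are 2 of the 90 probe sets in the study's own list of genes that differed between these cells, which was drawn from the same 6 arrays, and without that list their probe sets would have had no name here. Both were therefore picked for a difference on these arrays, and nothing is read from their passing against the shares of all probe sets. LHCA3, PSAH1 and NPQ4, photosynthesis markers also named through it, did not pass in limma (unadjusted p 0.133, 0.0769 and 0.0907). The share of the listed probe sets that pass in limma was not counted, so nothing is read from these markers about 4CL5 and CCR1. HCT and CCR2, which the array annotation names, did not pass and are not in the list. After adjustment 0 of the 4 genes passed, as did 0 of all probe sets in limma, where 365 (1.60%) had an unadjusted p under 0.05, and 0 of the 4 passed after adjustment in the methods' t-test. With 3 arrays against 3, an exact permutation test cannot give a 2-sided p below 0.1.

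**Figure D1:**
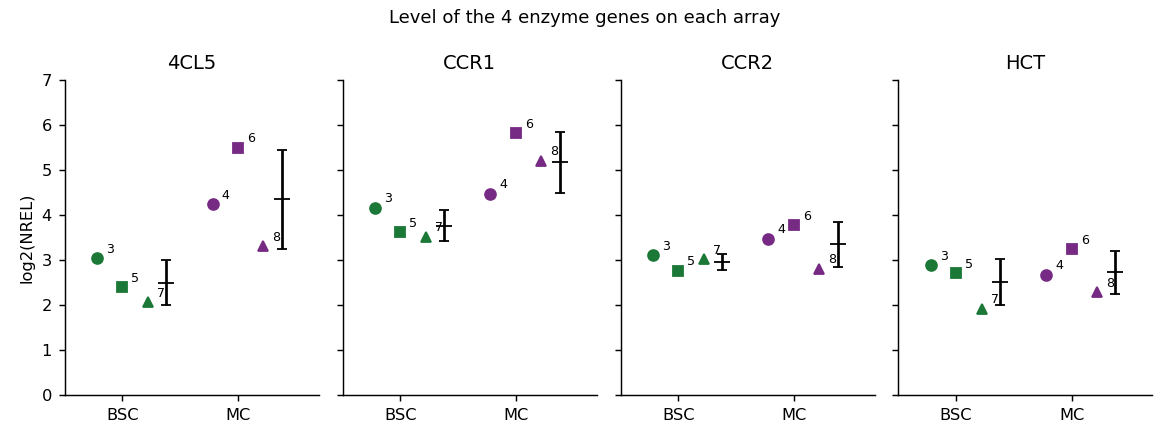
Level of each gene on each array, as log2(NREL), with BSC arrays in green and MC arrays in purple, the array number beside each point and the mean ± SD (n = 3) as a bar. The BSC and MC points are apart for 4CL5 (gap 0.27) and CCR1 (gap 0.31) and overlap for CCR2 and HCT. Of all probe sets, 2.85% had every BSC array below every MC array.

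HCT acts on the shikimate ester route shared by guaiacyl and syringyl lignin units. It had log2(NREL) of 2.88, 2.70 and 1.92 on BSC arrays 3, 5 and 7 and of 2.67, 3.23 and 2.28 on MC arrays 4, 6 and 8. BSC arrays 3 and 5 lay among the MC arrays, and BSC array 7 was the lowest of all 6. No other value of the 4 genes on any array was under 2. The means were 2.50 ± 0.51 and 2.73 ± 0.48 (SD, n = 3 each), a difference of -0.23 (SE 0.35) with an unadjusted p of 0.533 in limma. The interval of the difference, -1.09 to 0.63, holds 0 and reaches to 2.12 times lower and 1.54 times higher in BSCs. HCT turned its sign in 2 of the 6 fits that leave out an array, to 0.06 without BSC array 7 and 0.02 without MC array 6.

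CCR2 encodes a second cinnamoyl-CoA reductase, known for induction by pathogens more than for lignin of growing stems. It had log2(NREL) of 3.10, 2.76 and 3.02 on BSC arrays 3, 5 and 7. It had 3.47, 3.77 and 2.80 on MC arrays 4, 6 and 8. MC arrays 4 and 6 were above every BSC array, and MC array 8 fell between BSC arrays 5 and 7. The means were 2.96 ± 0.18 in BSCs and 3.35 ± 0.50 in MCs (SD, n = 3 each), and the difference of -0.39 (SE 0.27, interval -1.06 to 0.27) had an unadjusted p of 0.196 in limma. Without MC array 8 the difference was -0.67 with an unadjusted p of 0.0146 and passed the thresholds, and it passed with no other array left out.

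Whether CCR1 and CCR2 had unlike differences between the cell types was asked of the within-array difference of their log2 values. This measure was added after the data were seen. CCR1 minus CCR2 was 1.06, 0.86 and 0.50 on BSC arrays 3, 5 and 7 and 0.99, 2.04 and 2.40 on MC arrays 4, 6 and 8. BSC array 3 and MC array 4 overlapped, while MC arrays 6 and 8 stood above the rest. The mean was 0.80 ± 0.29 in BSCs and 1.81 ± 0.73 in MCs (SD, n = 3 each), and the difference of -1.01 between them had a 2-sided exact permutation p of 0.2. The smallest p this design allows is 0.1, so the test could not have passed 0.05 with any values. CCR1 could be named only through the study's list of differing genes and CCR2 is not in it, so that choice favours a contrast between them. Whether their differences between the cell types are unlike was not settled.

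The rank of each gene within its array sets its level against all other probe sets of that array and does not depend on the scale of the array. From the top of the array, 4CL5 ranked 3147, 5457 and 11278 on BSC arrays 3, 5 and 7 and 710, 916 and 1656 on MC arrays 4, 6 and 8. On BSC array 7 it stood at the middle of the array, with 50.4% of probe sets below it, against 76.0% and 86.2% on BSC arrays 5 and 3 and 92.7% to 96.9% on the MC arrays. The share of probe sets below 4CL5 was 70.9% ± 18.4 in BSCs and 95.2% ± 2.19 in MCs (SD, n = 3 each).

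CCR1 ranked 1774, 1432 and 882 on BSC arrays 3, 5 and 7 and 586, 757 and 372 on MC arrays 4, 6 and 8. It was among the brightest probe sets of every array, with 92.2% to 96.1% of probe sets below it in BSCs and 96.7% to 98.4% in MCs. As with the levels, the ranks of 4CL5 and CCR1 did not overlap between the cell types, which was so, with the BSC arrays lower, for 4.07% of all probe sets, against 3.96% with the BSC arrays higher. BSC array 7 had the lowest log2 value of CCR1 and yet its highest rank among the BSC arrays, since fewer probe sets of that array were bright.

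The ranks of HCT and CCR2 overlapped between the cell types. HCT had 84.5%, 85.0% and 36.9% of probe sets below it on BSC arrays 3, 5 and 7 and 84.1%, 88.0% and 68.9% on MC arrays 4, 6 and 8. Its lowest positions were thus on BSC array 7 and MC array 8. CCR2 had the narrowest span of positions after CCR1, 86.0% to 91.4% in BSCs and 86.7% to 93.8% in MCs.

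**Figure D2:**
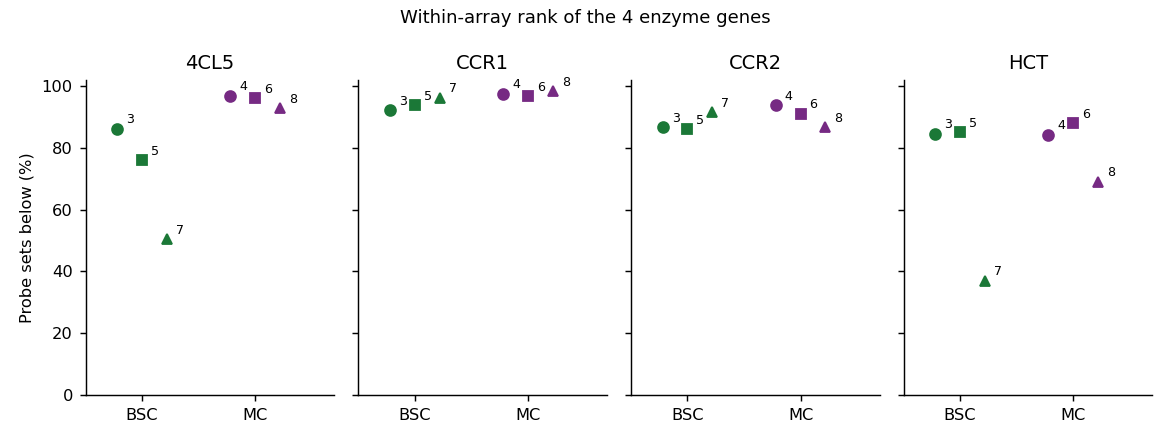
Position of each gene within each array, as the percentage of the 22746 probe sets that lie below it, with BSC arrays in green and MC arrays in purple and the array number beside each point. 4CL5 lies at 50.4% to 86.2% in BSCs and 92.7% to 96.9% in MCs, CCR1 stays above 92% throughout, and HCT drops to 36.9% on BSC array 7.

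4CL5 and CCR1 shared part of their order among arrays. In both, BSC array 7 was lowest and BSC array 3 highest of the BSCs, which is the order of the spread of those arrays (SD 0.60, 0.95 and 1.23 on BSC arrays 7, 5 and 3), and in both MC array 6, with an SD of 1.23, was the highest of all. They differed in the other MC arrays, since 4CL5 was higher on MC array 4 than on MC array 8 and CCR1 was lower. Quantile normalization, which gives every array the same spread, gave differences of -1.87 for 4CL5 (unadjusted p 0.00268 in limma) and -1.22 for CCR1 (unadjusted p 0.0149). Both genes were picked for a difference on these arrays, so these p-values are a description. With it, 4CL5 had 2.85, 2.41 and 1.97 on BSC arrays 3, 5 and 7 and 4.80, 4.45 and 3.61 on MC arrays 4, 6 and 8. CCR1 had 3.52, 3.81 and 4.50 in the BSCs, in the same order, and 5.07, 4.71 and 5.71 in the MCs. BSC array 7 thus became its highest BSC value, below every MC array. The part of array spread in the differences was not tested.

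The call of CCR1 held whichever array was left out, with differences of -1.75 to -1.07, and was lost with a prior variance that follows the mean level (unadjusted p 0.0861). That of 4CL5 was lost without BSC array 5 (-1.80, unadjusted p 0.0586), without BSC array 7 (-1.63, unadjusted p 0.0643) and in the methods' t-test (unadjusted p 0.0562), with differences of -2.37 to -1.28 over the arrays left out. CCR1 passed in the methods' t-test with an unadjusted p of 0.0331, where 0.132% of all probe sets passed as lower in BSCs.

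**Figure D3:**
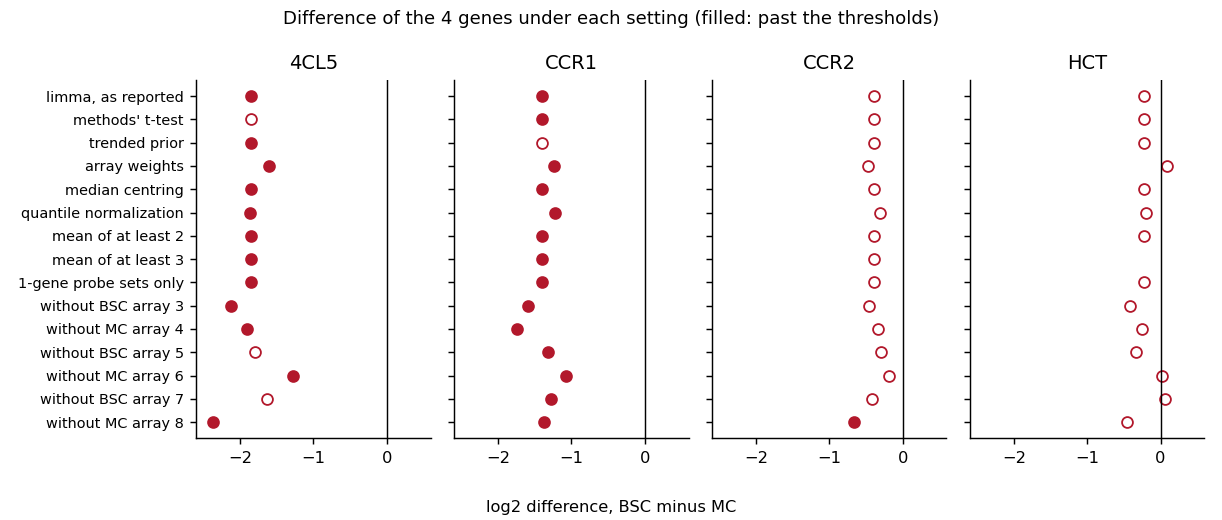
Difference of each gene on the log2 scale, BSC minus MC, under each processing setting, with filled points past the thresholds (unadjusted p under 0.05 and a fold change of at least 1.5). All 4CL5 and CCR1 points lie below 0, CCR2 passes only without MC array 8, and HCT lies on both sides of 0.

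To see which genes varied most like the members over the 6 arrays, each named probe set was centred on its own mean and the root mean square difference of its log2 values from those of the member was taken, for the members with an SD over the arrays of at least 0.5 (4CL5, 1.27, and CCR1, 0.90). Of 13482 candidate probe sets, the nearest to 4CL5 were those of SVP, a repressor of flowering (0.17), VDAC3, a channel of the outer mitochondrial membrane (0.31), and rps19, a ribosomal protein gene of the plastid genome (0.37). SVP had log2(NREL) of 3.46, 2.67 and 2.05 on BSC arrays 3, 5 and 7 and 4.43, 5.97 and 3.67 on MC arrays 4, 6 and 8, the same order of arrays as 4CL5. The nearest to CCR1 were AT3G50900 (0.19), AT1G79510 (0.21) and AT1G56180 (0.27), which have no symbol in the TAIR10.1 gene table. SVP and VDAC3, like 4CL5 and CCR1, were candidates only because the study's list of differing genes names them. AT3G50900 and AT1G56180, though named by the array annotation, are in that list too. Thus 4 of these 6 nearest probe sets belong to a list drawn from the same arrays. CCR1 was at place 48 in the order of likeness to 4CL5, with a root mean square difference of 0.59, while 4CL5 was at place 233 in the order of likeness to CCR1. CCR2 and HCT stood at places 369 and 462 from 4CL5 and at places 508 and 644 from CCR1.

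**Figure D4:**
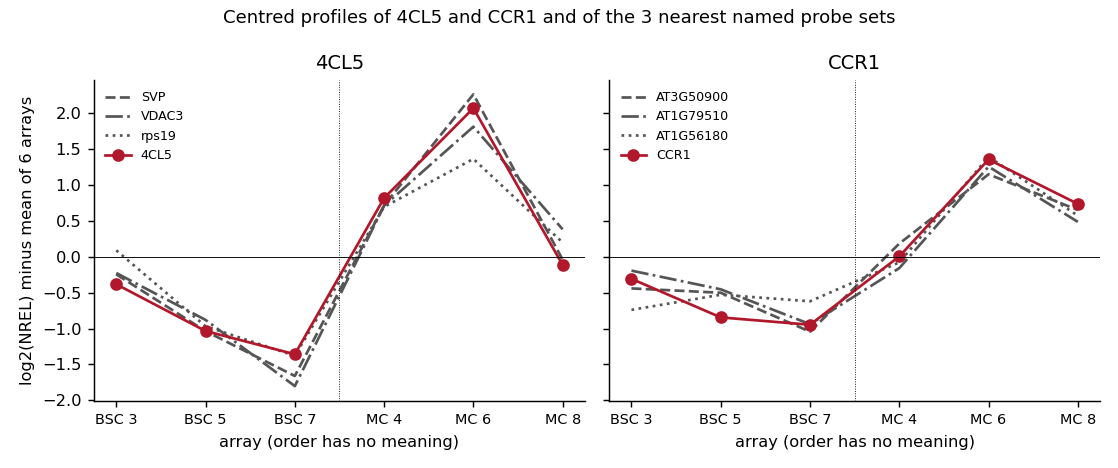
Profiles of 4CL5, CCR1 and the 3 named probe sets nearest to each, as log2(NREL) minus the mean of the 6 arrays, with BSC arrays to the left and MC arrays to the right of the dotted line and no meaning in the order of arrays within a cell type. SVP follows 4CL5 most closely (root mean square difference 0.17), and AT3G50900 follows CCR1 (0.19).

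On the chromosome, 4CL5 lies next to 4CL2 in the TAIR10.1 gene table, with the kinase gene MKK5 on its other side. 4CL2 had no named probe set, so the neighbouring ligases were not compared. CCR1 and CCR2 each lie next to a gene of the NRAMP metal transporter family, NRAMP6 and NRAMP1. The symbols CCR1 and CCR2 are each carried by 4 genes in that table as a symbol or synonym, CCR2 among them by the RNA-binding protein gene GRP7, and the reductases were therefore taken by AGI code alone.

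For the rest of the pathway, 88 genes were listed by step and 22 of them could be named, 16 of these being relatives of the 4CL, CCR and HCT families. None of the 22 passed the thresholds in either direction, against 0.501% of all probe sets, and 0 of the 22 had an unadjusted p under 0.05 in limma or passed in the methods' t-test. Their mean was lower in BSCs for 7 and higher for 15, against 10448 and 12298 of all 22746 probe sets. The median difference of the 22 was 0.10 against 0.01 for all probe sets, with a range of -1.20 to 1.32. None of the 8 genes of the general steps (PAL, C4H and the other 4CL genes) and none of the 12 MYB regulators had a named probe set, nor had any of the monolignol branch but 1 of 16.

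That 1 gene was ALDH2C4, which oxidizes coniferaldehyde and sinapaldehyde to ferulic and sinapic acid. It had log2(NREL) of 6.78, 3.57 and 2.48 on BSC arrays 3, 5 and 7 and 5.40, 5.99 and 5.06 on MC arrays 4, 6 and 8. BSC array 3 was the highest of all 6 arrays and the other BSC arrays the lowest, and the difference was -1.20 (SE 1.10, unadjusted p 0.319 in limma). Without BSC array 3 it was -2.46 (SE 0.43) and passed the thresholds.

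In the supply of phenylalanine, 1 of 15 listed genes was named, AT1G22410, which the TAIR10.1 gene table gives no symbol. It had log2(NREL) of 7.34, 5.02 and 2.92 on BSC arrays 3, 5 and 7 and 3.05, 3.97 and 4.29 on MC arrays 4, 6 and 8. The highest and the lowest of the 6 values were thus both from BSCs. The difference was 1.32 (SE 1.11), and without BSC array 7 it was 2.41 and passed the thresholds.

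Of the lignin polymerization list, 2 of 7 were named, the class III peroxidases PRX52 with a difference of 0.33 (SE 0.36) and PRX72 with 0.18 (SE 0.13). The flavonoid branch had 1 of 7 named, DFR, the reductase of anthocyanin synthesis, at 3.33 to 4.02 in BSCs and 3.27 to 4.61 in MCs with a difference of -0.03. The sinapate ester branch had 1 of 4, UGT84A1, a glucosyltransferase of hydroxycinnamic acids, with a difference of -0.07. The arrays of the cell types overlapped in all 4 of these genes.

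Among the 16 named relatives the mean was lower in BSCs for 4 and higher for 12, against 10448 and 12298 of all 22746 probe sets. The median difference of the relatives was 0.10 with a range of -0.98 to 0.50, and 6 of them had a mean under 2 in both cell types. OPCL1, a ligase of jasmonate synthesis, had log2(NREL) of 8.58, 7.94 and 5.04 on BSC arrays 3, 5 and 7 and 6.14, 8.92 and 7.43 on MC arrays 4, 6 and 8, with a difference of -0.31 (SE 1.13). AT5G14700, listed as a relative of CCR, had the lowest difference of the relatives, -0.98 (SE 1.41), with 2.33 to 6.36 in BSCs and 3.13 to 6.74 in MCs. The smallest p among the relatives were those of AT2G23910, listed with CCR (difference 0.27, unadjusted p 0.0619 in limma), AT1G20480, listed with 4CL (0.32, unadjusted p 0.0840), and AT1G76470, listed with CCR (0.13, unadjusted p 0.373). AT2G23910 and AT1G20480 had every BSC array above every MC array, as had 3.14% of all probe sets, and all 3 had means under 2 in both cell types.

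A further 21 genes of the pathway's outer steps, whose lists were drawn up after it was known which genes the array names, gave 0 past the thresholds, 9 lower and 12 higher in mean (10448 and 12298 of all probe sets), and a median of 0.02. They hold glucosyltransferases of monolignols and phenolic acids, flavonoid decoration enzymes, hydroxycinnamoyl transferases with a methyltransferase and a hydroxylase, and a laccase with peroxidases. LAC16, the laccase, a multicopper oxidase of a family that couples monolignols, was the 1 gene of them with an unadjusted p under 0.05 (0.0212 in limma). Of all probe sets 1.60% had such a p. LAC16 lay near the middle of all probe sets, at 2.12 ± 0.06 in BSCs and 1.83 ± 0.07 in MCs (SD, n = 3 each). Its difference of 0.29 is under the fold of 1.5, and it did not pass after adjustment. UGT72B1, which conjugates monolignols with glucose, had 6.67, 5.23 and 2.75 on BSC arrays 3, 5 and 7 and 3.84, 4.87 and 4.88 on MC arrays 4, 6 and 8, with a difference of 0.35. Of the 43 named genes of all these lists, 17 had a mean under 2 in both cell types and 8 reached 3.5 in at least 1 of them.

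**Figure D5:**
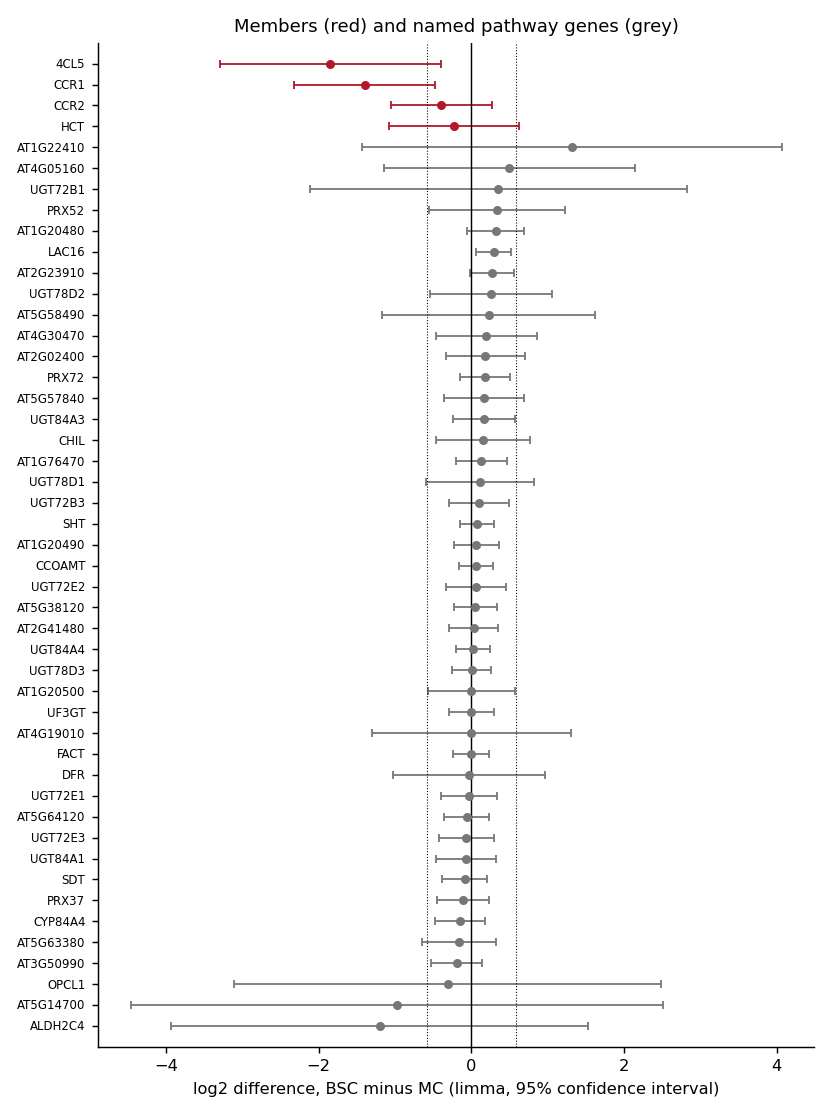
Difference on the log2 scale, BSC minus MC, with its 95% confidence interval from limma, for the 4 members in red and the 43 other named genes of the pathway in grey, with dotted lines at a fold change of 1.5. 4CL5 (-1.85) and CCR1 (-1.40) are the lowest differences shown, ahead of ALDH2C4 (-1.20), whose interval holds 0. 4CL5 and CCR1 could be named only through the study's list of differing genes, and the grey genes were named by the array annotation. The place of 4CL5 and CCR1 in this order is therefore not a result.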

How the data were processed

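RNA of hand-picked BSC and MC protoplasts was hybridized to ATH1 arrays, 3 per cell type, and the arrays were grouped by their labels. The authors processed the arrays by robust multi-average (RMA) with Partek software (version 6.6 per the submitters' processing notes, another version in the study's methods) and deposited log2 values per probe set. Scanner files were not used here. Arrays have no read depth, so their number limits the precision, and p-values measure the spread between these pools.

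Of 22810 probe sets, 64 controls were left out. Names came from the array annotation through the TAIR10.1 gene table for 13436 probe sets and from the study's list of differing genes for 46 more, 4CL5 and CCR1 among them, while 506 probe sets of several genes were given no name. A gene with several probe sets was taken by the one with the highest mean. No probe, promoter or protein sequence was used, so the planned search of promoters for AC elements was not run.

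Cell type was the only factor of a limma model over all 22746 probe sets (version 3.58.1, run under R 4.3.3, with moderated 2-sided tests and Benjamini-Hochberg adjustment), in place of the analysis of variance the methods name. On simulated data 87% of probe sets changed by 1 and 96% of those changed by 2 on the log2 scale passed the thresholds, of 100 each. Those probe sets were drawn at random from all levels, with independent noise at the SD of each. Of the unchanged simulated probe sets 5.14% had an unadjusted p under 0.05 in limma, against 1.60% of all probe sets in the data. The simulation thus differs from the data, and its shares do not give the chance of passing for a gene of wide spread. Alternatives were the methods' t-test (equal variances), a trended prior, array weights, median centring, quantile normalization, filters at a mean of 2 and of 3, probe sets of 1 gene alone, and each array left out. That t-test gives the same p as an analysis of variance with cell type alone. In it 4CL5 (unadjusted p 0.0562) and LHCA3 (unadjusted p 0.218) did not pass, though both are in the study's list. The study's calls were thus not all reproduced by that model. The genes named are the 4 members, the listed genes past the thresholds or with the 3 smallest p of their list, the markers found and the 3 nearest profiles, while OPCL1, AT5G14700, LAC16 and UGT72B1 were picked after their values were seen. The members and lists were chosen with earlier results of these data known.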

Additional observations from a re-analysis of the deposited data

How the results depend on the processing

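4CL5 (-1.85) and CCR1 (-1.40) stayed lower in BSCs under every alternative tried, a sign that several of these could not have turned. The cell types did not overlap in either gene, so leaving out an array must keep the sign. The methods' t-test, the trended prior and the filters do not change the values. The difference of 4CL5 was -1.85 without passing in the methods' t-test and ranged from -2.37 to -1.28 over the arrays left out, and that of CCR1 was -1.40 without passing with a trended prior. CCR2 ranged from -0.67 to -0.18 over the arrays left out. HCT turned to 0.095 with array weights and ranged from -0.45 to 0.061 over the arrays left out, with 0.061 without BSC array 7 and 0.022 without MC array 6. HCT has a mean under 3, so it gave no value under that filter. The number of probe sets past the thresholds, 114, was 885 with array weights, 256 after quantile normalization, 41 in the methods' t-test, 22 at a mean of at least 3 and 90 to 418 over the arrays left out, and those lower in BSCs, 82, were 286, 184, 30 and 17 under the same settings and 59 to 199 over the arrays left out. Lower calls were thus fewer than higher ones with array weights and without BSC array 7 (83 of 418), and more in every other setting run. Of the 22 named pathway genes, 0 passed, against 3 with array weights (ALDH2C4 -1.66, PRX52 0.85 and AT1G22410 1.41) and 0 to 2 over the arrays left out. PRX52 passed without BSC array 7 with 0.73. The difference between CCR1 and CCR2 ranged from -1.42 to -0.71 over the arrays left out. The cause of these changes was not tested. The array weights ran from 0.34 on BSC arrays 3 and 7 to 6.83 on BSC array 5, so that fit rests on BSC array 5 for its BSC level, and its estimation gave a convergence warning. No paired analysis was run. The study states that the cell types were extracted together, but the labels do not give which BSC and MC pools belong together.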
